A study of Mus musculus with 6 samples.

Results

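The 34 interferon-stimulated genes described here were chosen by name, and all 34 were found among the 57180 genes of the count table. Each has 1 row in the table, and each passed the filter on low counts that left 16346 genes for testing. The tissue was dorsal root ganglia, the sensory ganglia beside the spinal cord, taken from thoracic level 8 to lumbar level 2 of wild-type mice 24 h after kidney surgery. In 3 ischemia-reperfusion (I/R) mice the left renal pedicle was clamped for 28 min and released, and the right kidney was removed. The 3 sham mice had the same operation without the clamp, per the labels, which do not state removal of the right kidney for them separately. Strain, sex and age are not given in the labels, and each library is taken to be 1 mouse. The comparison asks how interferon-responsive transcripts in these ganglia differed after renal I/R.

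Interferons are secreted proteins that cells release on sensing viral or misplaced nucleic acid. Type I interferon binds the receptor chains IFNAR1 and IFNAR2 and acts through JAK1 and TYK2 on a complex that holds STAT2 and IRF9 and binds the interferon-stimulated response element in target promoters. The induced genes encode sensors, antiviral effectors, ubiquitin-like modifiers and feedback regulators, and many have a basal level in neurons, glia, vessels and macrophages of uninfected ganglia.

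As a group these genes stood near their sham level in I/R ganglia, and none was called at an adjusted p under 0.05 with edgeR's quasi-likelihood test. DESeq2 and limma-voom also called 0 of the 34. Over all tested genes, 1.15% were called, 0.722% higher and 0.428% lower. A smaller set leaned upward: Ifi44, Ifit1, Oasl2, Rsad2, Herc6, Mx1 and Trim30a stood 1.21-fold to 1.93-fold higher in I/R at an unadjusted p under 0.05. Isg15 and Oas2 stood lower at that threshold, with ratios of 0.618 and 0.506. These 9 genes are 26.5% of the 34, against 10.5% of all tested genes at the same threshold. By direction, 20.6% of the 34 stood higher at that threshold and 5.88% lower, against 5.70% and 4.80% of all tested genes. The members share libraries and are not independent, and these shares were not tested.

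The median log2 fold change over the 34 genes was 0.04, with 0.00 over all tested genes. Of the 34, 19 lay above 0 and 15 below. The middle 50% of all tested genes lay between -0.13 and 0.13, and that of the 34 genes between -0.10 and 0.30. The 3 I/R values lay all above the 3 sham values for 5 of the 34 genes (Ifi44, Ifit1, Oasl2, Herc6 and Trim30a) and all below for 0. Groups that did not overlap made up 14.7% of the 34, against 17.1% of all tested genes, 9.23% with I/R above and 7.83% with I/R below. The count of 9 was 5 without sham 1 (14.7% of members, against 7.54% of all genes then tested), 4 without sham 2 (11.8% against 8.10%) and 5 without I/R 3 (14.7% against 8.85%). With sham 2 alone against I/R, which leaves 1 sham library, it was 1 (2.94% against 7.07%).

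**Figure D1:**
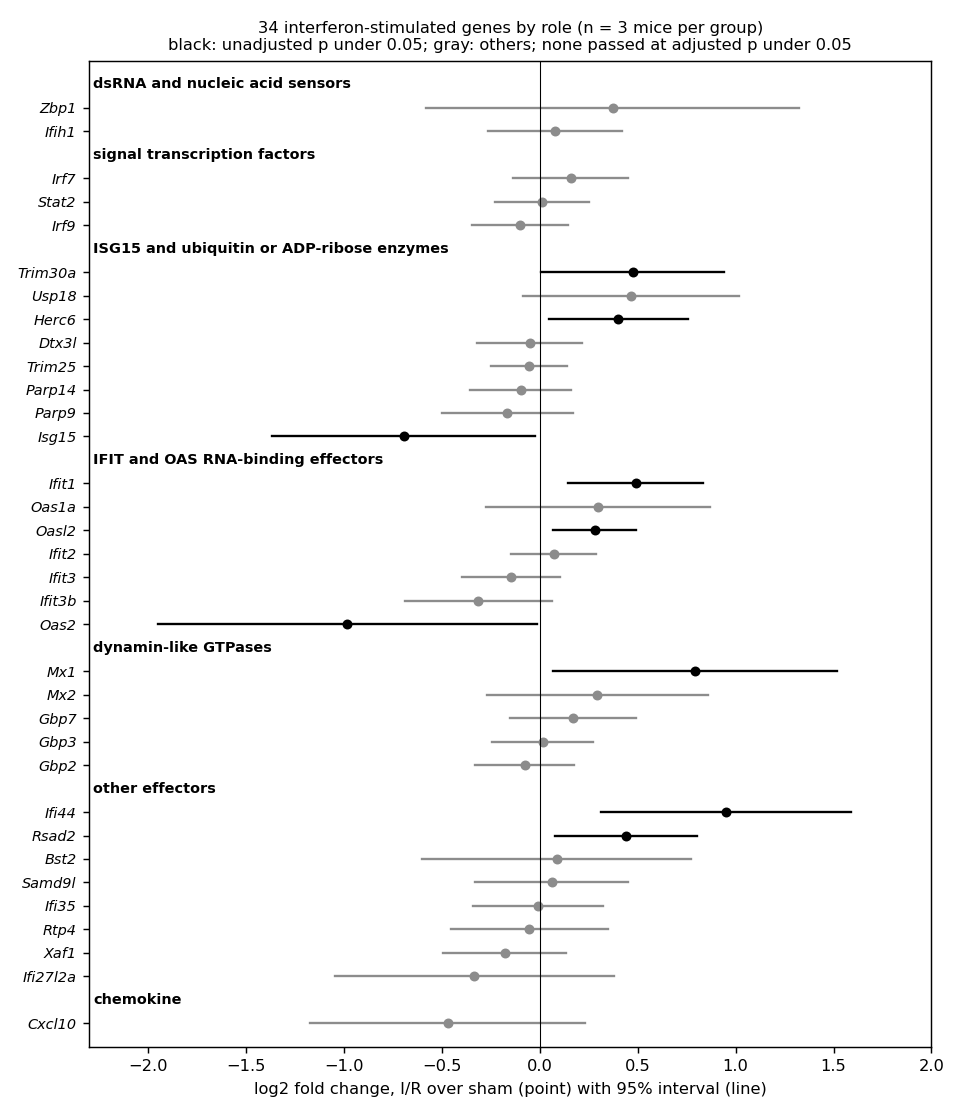
Log2 fold change of I/R over sham (horizontal axis) for each of the 34 genes, grouped by role, with lines for the 95% interval of each gene. Black marks the 9 genes with an unadjusted p under 0.05, 7 to the right of 0 and 2 to the left, and the intervals of the other 25 genes include 0.

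Library totals ran from 19092650 to 22010227 expected counts. Members took 0.0449% to 0.0501% of them. All 10 sensory neuron markers passed the filter and summed to between 18200 and 21300 CPM, the count scaled to library size, in every library. Of 11 marker lists of other cells, the summed levels of 6 did not overlap between groups. Macrophage markers (11 genes, 1 called) summed to 54.6 to 57.6 CPM after sham surgery and 66.4 to 70.4 CPM after I/R, and fibroblast and meningeal markers (8 genes, 7 called lower) to 996 to 1210 and 548 to 666 CPM. Skeletal muscle markers (12 genes, 10 tested, 2 called lower) summed to 604, 19.5 and 307 CPM across sham 1 to 3 and to 6.57 to 15.8 CPM after I/R. Lymphocyte markers (8 genes, 3 tested, 1 called lower) summed to 23.4 to 27.7 CPM after sham surgery and 14.5 to 18.7 CPM after I/R. Of the 3 tested lymphocyte markers, 2 had a log2 fold change above 0 and 1 below, with a median of 0.21. The lower sum is thus not a fall shared by the list. Red cell markers (5 genes, all called lower) summed to 181 to 271 and 52.8 to 86.6 CPM, and Schwann cell markers (6 genes, 0 called) to 6450 to 6730 and 5460 to 6140 CPM. The sums overlapped for endothelium, satellite glia, neutrophils and monocytes, plasmacytoid dendritic cells and spinal cord oligodendrocytes. No marker on these lists was at 0 in all libraries. The part of these cells in any value below was not tested. In bulk tissue, fewer cells of a type and less RNA per cell cannot be told apart.

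Levels between genes are compared as TPM, which divides counts by gene length and scales each library to the same total, as means over the 6 libraries. Stat2 had the highest level, 53.5 TPM, with 45.3 to 60.2 over libraries. Oasl2 followed at 42.8 TPM (36.6 to 52.9), then Ifi27l2a at 40.7 (27.2 to 62.1), Bst2 at 33.9 (22.3 to 50.2), Ifi35 at 30.4 (25.5 to 33.3) and Ifit3 at 29.9 TPM (24.3 to 34). The library ranges of each neighboring pair in this order overlapped. Trim25, Ifit2, Ifit1 and Irf9 ranged from 18.5 to 23.2 TPM. The median over all tested genes was 15.4 TPM, and 11 of the 34 genes stood at or above it. The lowest levels were 0.627 TPM for Oas2, 0.919 for Mx1, 1.44 for Trim30a, 1.46 for Zbp1 and 1.49 for Ifi44. All of these but Zbp1 are among the 9 genes with an unadjusted p under 0.05.

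The sensors of foreign nucleic acid stood near their sham level or varied widely. Ifih1 encodes MDA5, a cytosolic sensor of long double-stranded RNA. It stood at 7.46, 7.25 and 8.54 CPM across sham 1 to 3, and at 7.22, 7.65 and 9.63 CPM across I/R 1 to 3. The groups overlapped, and the log2 fold change was 0.08 (95% interval -0.26 to 0.42). Zbp1, a sensor of Z-form nucleic acid that can trigger cell death, stood at 0.933, 1.60 and 0.411 CPM after sham surgery and 1.14, 1.65 and 1.05 CPM after I/R. Sham 3 was low, with 8 counts, and the interval for Zbp1 ran from -0.58 to 1.33.

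The transcription factors that carry the interferon signal differed little. Stat2 stood at 92.0, 101 and 81.1 CPM after sham surgery and 85.3, 92.8 and 97.8 CPM after I/R, a log2 fold change of 0.01 ± 0.11 (SE). Its 95% interval, -0.23 to 0.25, corresponds to ratios from 0.852 to 1.19. Irf9, the DNA-binding partner of STAT2, stood at 22.1 ± 1.59 CPM after sham surgery and 20.6 ± 1.41 CPM after I/R (SD, 3 mice each), with an interval of -0.35 to 0.14. Irf7, the factor that amplifies interferon production, stood at 7.61, 8.40 and 7.76 CPM after sham surgery and 9.59, 7.94 and 8.99 CPM after I/R. I/R 2 lay within the sham range, and the log2 fold change was 0.16 ± 0.13 (adjusted p = 0.735, edgeR). Trim25 was as steady, with 50.3, 51.8 and 52.6 CPM after sham surgery and 48.4, 49.5 and 51.1 CPM after I/R. It encodes a ubiquitin ligase that acts on the RNA sensor RIG-I, and its interval was -0.25 to 0.14.

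The IFIT genes lie together on mouse chromosome 19 and encode proteins that bind viral RNA. Ifit1, which recognizes viral RNA caps, stood at 15.9, 17.5 and 17.5 CPM after sham surgery and 26.8, 18.2 and 26.5 CPM after I/R. All I/R values lay above all sham values, but I/R 2 was close to sham. The log2 fold change was 0.49 ± 0.15 (adjusted p = 0.245, edgeR), a 1.40-fold difference with an interval of 1.11 to 1.78. Its unadjusted p was under 0.05 in 14 of 15 alternatives, the exception being sham 2 alone against I/R. Ifit2, which also promotes cell death, stood at 28.7 ± 1.02 CPM after sham surgery and 30.1 ± 1.76 CPM after I/R, with an interval of -0.15 to 0.29 on the log2 scale. Ifit3, a binding partner of IFIT1, stood at 20.3, 22.8 and 21.1 CPM after sham surgery and 17.5, 20.0 and 20.5 CPM after I/R (log2 fold change -0.15 ± 0.11). Ifit3b, its close copy, stood at 5.89, 8.05 and 8.74 CPM after sham surgery and 5.78, 6.10 and 6.34 CPM after I/R (-0.31 ± 0.17, adjusted p = 0.566, edgeR). The counts of both were not whole numbers in any library, and the split of reads between the copies is uncertain.

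The ratio of Ifit1 CPM to Ifit3 CPM was 0.785, 0.767 and 0.830 for sham 1 to 3, against 1.53, 0.910 and 1.29 for I/R 1 to 3. The groups did not overlap. This pair was chosen after its values were seen, and an exact permutation test of 3 against 3 cannot give a two-sided p below 0.1.

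The promoters of Ifit1, Ifit3 and Ifit3b, but not those of Ifit2, held letters of the interferon-stimulated response element. This describes the sequences only, and a link to the values of these genes was not tested. The letters TTTC, any 2 bases and TTTC again, or GAAA, any 2 bases and GAAA on the other strand, form the core of the interferon-stimulated response element. They were searched on both strands in the 250 bases before each start site in RefSeq promoters of GRCm38.p6, overlapping matches included, with no other motif. Of the 25 members with a promoter entry, 13 (52%) held the letters, against 3.46% of 27025 genes in the same table. Among members with an unadjusted p under 0.05, 4 of 7 held them, and among the others 9 of 18. The stretches below are written 5′ to 3′ on the gene's strand with the matching letters in capitals. They run from chr19:34640765-34640833 (Ifit1, plus strand), chr19:34583353-34583436 (Ifit3, plus strand) and chr19:34607749-34607832 (Ifit3b, plus strand).
Ifit1: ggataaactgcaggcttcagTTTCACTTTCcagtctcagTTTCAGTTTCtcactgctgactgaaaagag
Ifit3: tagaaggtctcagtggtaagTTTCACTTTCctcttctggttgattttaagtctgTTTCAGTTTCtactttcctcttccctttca
Ifit3b: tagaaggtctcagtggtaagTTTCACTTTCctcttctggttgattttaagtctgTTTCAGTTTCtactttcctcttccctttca
Each of the 3 holds the same pair of matches, TTTCACTTTC and TTTCAGTTTC, in the same order. They begin 104 and 85 bases before the start of Ifit1, 156 and 122 before that of Ifit3, and 188 and 154 before that of Ifit3b. The Ifit3 and Ifit3b stretches differ at 0 of 84 bases, and these close copies are not separate examples. Ifit2, with 2 promoter windows, held 0 matches. A match is a description of the letters and not a shown binding site. Likewise, 0 matches to this pattern in 250 bases does not show that a gene lacks the element.

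The OAS family makes or resembles enzymes that make a short adenylate messenger on binding double-stranded RNA. Oasl2, an OAS-like protein gene, had the second level of all members and one of the smallest errors. It stood at 44.3, 49.6 and 47.6 CPM after sham surgery and 56.5, 54.1 and 61.1 CPM after I/R. All I/R values lay above all sham values, with a log2 fold change of 0.28 ± 0.10 (adjusted p = 0.302, edgeR) and a fold of 1.21 (interval 1.05 to 1.41). Oas2, which encodes a larger synthetase, went the other way, with 1.33, 1.45 and 1.08 CPM after sham surgery and 0.247, 0.581 and 1.10 CPM after I/R. I/R 1 was lowest, with 5 counts, and I/R 3 lay within the sham range (log2 fold change -0.98 ± 0.43, adjusted p = 0.469, edgeR). The value was -1.62 without I/R 3 and -0.61 without I/R 1. Oas1a stood at 2.65, 2.80 and 2.16 CPM after sham surgery and 4.25, 2.91 and 2.24 CPM after I/R. I/R 1 was the high library, and the interval was -0.27 to 0.87.

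**Figure D2:**
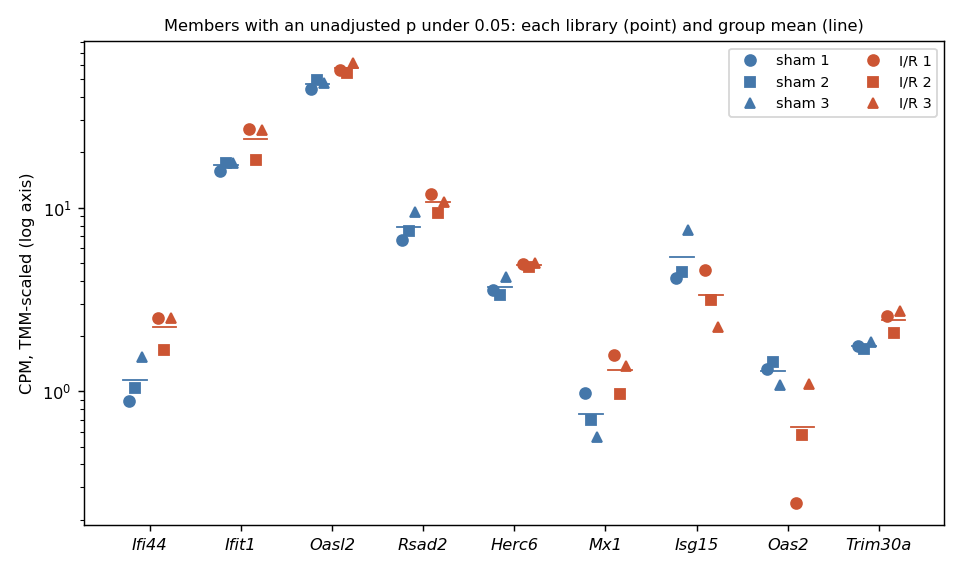
Level of the 9 genes with an unadjusted p under 0.05 in each library, in TMM-scaled CPM on a log axis, with sham in blue, I/R in red and lines at group means. For Ifi44, Ifit1, Oasl2, Herc6 and Trim30a each I/R point lies above each sham point, while the groups overlap for Rsad2, Mx1, Isg15 and Oas2.

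Among the other effectors, Ifi44 had the largest positive log2 fold change of the 34 genes. It encodes a protein of uncertain function that interferon induces strongly. Ifi44 stood at 0.884, 1.05 and 1.54 CPM after sham surgery, or 18, 21 and 30 counts, and at 2.52, 1.69 and 2.51 CPM after I/R, or 51, 35 and 55 counts. All I/R values lay above all sham values, a 1.93-fold difference (interval 1.24 to 3.01; adjusted p = 0.217, edgeR). Its unadjusted p was under 0.05 in all 15 alternatives, which reuse the same 6 libraries. Besides Ifit1, the other higher genes kept this less often. The number was 13 for Oasl2, 11 for Rsad2, 8 for Herc6, 8 of 14 for Mx1 and 2 for Trim30a. Among the lower genes it was 10 for Isg15 and 7 for Oas2. Rsad2 encodes viperin, an enzyme that makes a chain-terminating nucleotide against viral polymerases. It stood at 6.68, 7.45 and 9.46 CPM after sham surgery and 11.9, 9.35 and 10.8 CPM after I/R. Sham 3 and I/R 2 overlapped narrowly, and the log2 fold change was 0.44 ± 0.16 (adjusted p = 0.355, edgeR). Its promoter held 1 match, shown in the stretch chr12:26456543-26456592 (minus strand).
Rsad2: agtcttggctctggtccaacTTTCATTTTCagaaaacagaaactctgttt

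Several effectors stood near their sham level. Ifi35 stood at 16.3 ± 1.06 CPM after sham surgery and 16.2 ± 3.05 CPM after I/R. Samd9l, a translation inhibitor and antiviral factor, stood at 6.68 ± 1.03 and 6.96 ± 1.21 CPM. Rtp4, a receptor transporter that also restrains viruses, stood at 4.20 ± 0.648 and 4.05 ± 0.471 CPM, and Xaf1, an antagonist of the apoptosis inhibitor XIAP, at 10.2 ± 1.22 and 9.03 ± 0.951 CPM. The widest of these 4 intervals was that of Rtp4, from -0.45 to 0.35 on the log2 scale.

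The dynamin-like GTPases assemble on viral or pathogen structures. Mx1 stood at 0.982, 0.700 and 0.566 CPM after sham surgery and 1.58, 0.968 and 1.37 CPM after I/R. These are 11 to 32 counts a library, and I/R 2 lay within the sham range (log2 fold change 0.79 ± 0.32, adjusted p = 0.424, edgeR). Mx2 stood at 2.60, 2.15 and 2.88 CPM after sham surgery and 2.72, 2.37 and 4.24 CPM after I/R, with I/R 3 the single high library (interval -0.27 to 0.86). The guanylate-binding protein genes, which respond mainly to interferon gamma, were steady. Gbp2 stood at 12.4, 11.3 and 12.4 CPM after sham surgery and 12.0, 11 and 11.2 CPM after I/R. Gbp3 stood at 9.78 ± 0.399 CPM after sham surgery and 9.88 ± 0.252 CPM after I/R, and Gbp7 at 9.65 ± 1.11 and 10.9 ± 1.45 CPM. The intervals of the 3 GBP genes together spanned -0.33 to 0.49.

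The ISG15 system attaches a ubiquitin-like protein to other proteins, and its parts did not stand on 1 side. Isg15, the modifier itself, stood at 4.12, 4.45 and 7.56 CPM after sham surgery and 4.60, 3.15 and 2.24 CPM after I/R. Sham 3 was highest and I/R 3 lowest, and I/R 1 lay within the sham range. The log2 fold change was -0.69 ± 0.30 (adjusted p = 0.46, edgeR), with values from -0.997 without I/R 1 to -0.37 without sham 3. Herc6, the main ISG15 ligase of the mouse, stood at 3.58, 3.35 and 4.17 CPM after sham surgery and 4.94, 4.75 and 4.97 CPM after I/R. The groups did not overlap (0.40 ± 0.16, adjusted p = 0.404, edgeR). Usp18, which removes ISG15 and damps receptor signaling, stood at 3.44, 4.55 and 5.40 CPM after sham surgery and 7.56, 4.12 and 6.80 CPM after I/R. I/R 1 and I/R 3 lay above all sham libraries, and I/R 2 lay within them (0.47 ± 0.25, adjusted p = 0.56, edgeR).

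The promoter of Isg15 held 3 overlapping matches within chr4:156200855-156200916 (minus strand), shown because this gene stood lower at an unadjusted p under 0.05. Of the 13 members with the letters, 8 had a log2 fold change above 0 and 5 below, these being Isg15, Ifit3, Ifit3b, Gbp2 and Cxcl10. Stat2, the member of highest level, held 1 match within chr10:128270256-128270305 (plus strand).
Isg15: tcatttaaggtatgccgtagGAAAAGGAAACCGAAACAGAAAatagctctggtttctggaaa
Stat2: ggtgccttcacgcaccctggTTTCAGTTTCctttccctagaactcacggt
The Isg15 matches begin 78, 72 and 66 bases before the start, and the Stat2 match 222 bases before.

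The remaining ubiquitin and ADP-ribose enzymes showed 1 gene with separated groups. Trim30a, a TRIM protein that restrains inflammatory signaling, stood at 1.77, 1.70 and 1.85 CPM after sham surgery and 2.57, 2.08 and 2.74 CPM after I/R (log2 fold change 0.47 ± 0.21, adjusted p = 0.47, edgeR). Parp9 and Dtx3l encode partner proteins that ADP-ribosylate and ubiquitinate histones and viral proteins. Parp9 stood at 7.10 ± 0.963 CPM after sham surgery and 6.33 ± 0.369 CPM after I/R, and Dtx3l at 17.3 ± 1.19 and 16.7 ± 1.72 CPM. Parp14, a mono-ADP-ribosyltransferase, stood at 20.1 ± 0.244 and 18.7 ± 2.10 CPM. The intervals of Parp9, Dtx3l and Parp14 together spanned -0.50 to 0.21. Of the 34 genes, 13 had at least 1 count that was not whole, among them Parp9, Dtx3l, Oasl2 and Ifit1, so reads may be shared with overlapping or similar genes.

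Cxcl10 encodes the chemokine that attracts CXCR3-bearing T cells. It stood at 3.34, 3.40 and 3.81 CPM after sham surgery and 3.66, 1.26 and 2.69 CPM after I/R. I/R 2 was low, I/R 1 lay within the sham range, and the interval was -1.17 to 0.23.

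The members did not move as 1 block across mice. In the plot of deviations from each gene's mean, I/R 1 and I/R 3 were high for Ifi44, Ifit1, Mx1, Usp18 and Trim30a, with I/R 2 nearer to sham. Of the 34 genes, I/R 2 was the highest I/R library for 1, I/R 1 for 16 and I/R 3 for 17. Sham 3 was the highest sham library for 19 and sham 1 for 3. The summed level of all members was 431, 463 and 484 TPM for sham 1 to 3, against 481, 436 and 472 TPM for I/R 1 to 3, and the groups overlapped.

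**Figure D3:**
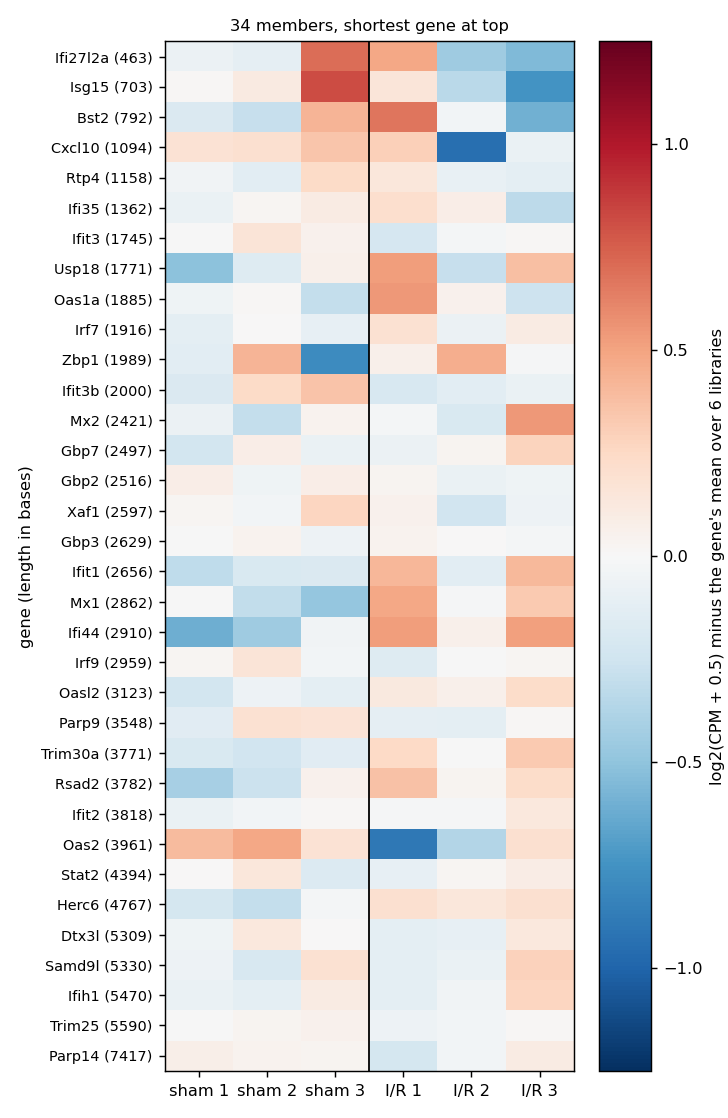
Each of the 34 genes (rows, shortest at the top, length in bases) in each of the 6 libraries (columns), as log2(CPM + 0.5) minus the gene's mean over libraries. The 3 shortest genes are high in sham 3 and I/R 1 and low in I/R 3, while Ifi44 and Ifit1 are high in I/R 1 and I/R 3.

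A second pattern followed gene length and crossed the groups. Ifi27l2a, Isg15 and Bst2 are the 3 members under 800 bases, with 463, 703 and 792. Bst2, which encodes tetherin, the membrane protein that holds budding viruses, stood at 8.89, 8.20 and 13.8 CPM after sham surgery and 16.4, 9.88 and 6.52 CPM after I/R. Ifi27l2a, a small membrane protein gene, stood at 6.68, 6.50 and 11.7 CPM after sham surgery and 10.1, 5.04 and 4.65 CPM after I/R. All 3 genes had sham 3 as the highest sham library, I/R 1 as the highest I/R library and I/R 3 as the lowest I/R library.

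The same libraries differed over the 688 tested genes under 800 bases. The median deviation of those genes, on the log2 scale, was -0.02, -0.09 and 0.35 for sham 1 to 3, against 0.28, -0.12 and -0.37 for I/R 1 to 3. Over the 4725 tested genes of 4000 bases or more it was 0.00, 0.02 and -0.06 in sham and -0.07, 0.03 and 0.11 in I/R. The groups also differed in part by length, with a median log2 fold change of -0.16 under 800 bases and 0.03 at 4000 bases or more. With an offset for this length trend, added after seeing the data, the SE fell from 0.31 to 0.19 for Bst2, from 0.32 to 0.16 for Ifi27l2a and from 0.30 to 0.19 for Isg15. The log2 fold changes were then 0.17 for Bst2, -0.16 for Ifi27l2a and -0.57 for Isg15 (adjusted p = 0.756, 0.739 and 0.239, edgeR). Ifit1 and Ifi44, at 2656 and 2910 bases, had 0.49 and 0.95 with the offset, as without it.

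**Figure D4:**
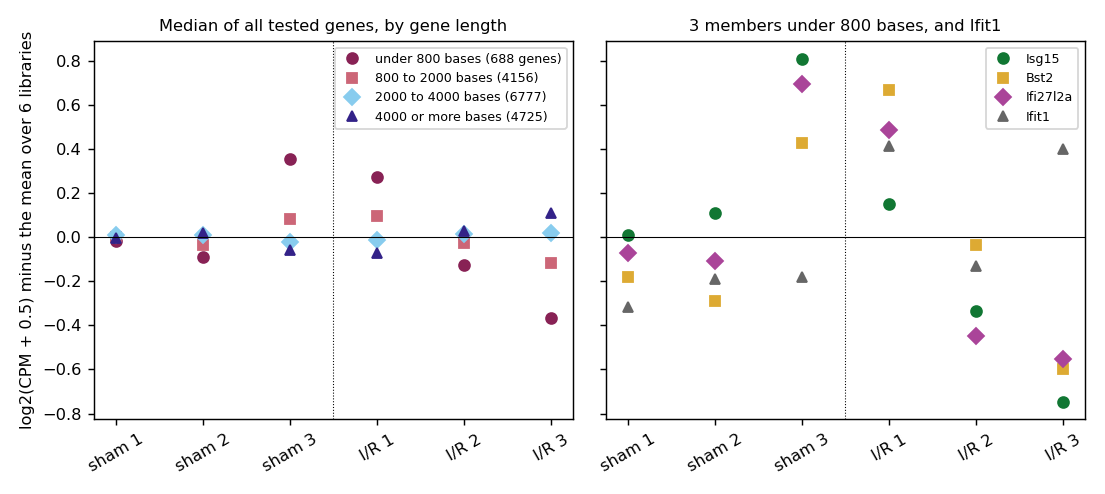
Left, median deviation from the mean over 6 libraries, in log2(CPM + 0.5), of all tested genes in 4 classes of gene length. Right, the same deviation for Isg15, Bst2, Ifi27l2a and Ifit1. Genes under 800 bases stand at 0.35 in sham 3 and -0.37 in I/R 3, and the 3 short members are high in sham 3 and low in I/R 3, unlike Ifit1.

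Upstream of these genes, interferon transcripts were close to absent from the counts. Of 21 interferon genes, 18 had 0 counts in all 6 libraries, which allows up to 0.137 to 0.154 CPM per library. Ifng had 1 count in I/R 1 and 1 in I/R 2, Ifnab had 1 in I/R 2, and Ifnz had 3 in I/R 2, so none was tested. All 6 receptor genes were tested and 0 were called, with 0 at an unadjusted p under 0.05 and a median log2 fold change of 0.08. Ifnar1 stood at 75.2 ± 5.63 CPM after sham surgery and 82.2 ± 6.72 CPM after I/R, Ifngr1 at 26.1 ± 1.28 and 23.4 ± 2.59 CPM, and Ifngr2 at 52.5 ± 2.93 and 55.5 ± 2.36 CPM.

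Of 10 genes of signal transduction 0 were called, and the median was -0.12. Jak2, a kinase of the interferon gamma and cytokine receptors, stood 0.29 ± 0.11 higher, and Irf3, the factor that starts interferon transcription, 0.32 ± 0.13 lower (log2 fold change -0.32). Both had separated groups, which the choice by p favors, with adjusted p of 0.387 and 0.405 in edgeR's test. Of the 10, groups did not overlap for 1 gene with I/R above and 2 with I/R below. Over all tested genes these shares were 9.23% and 7.83%. Irf1 stood at 18.0 ± 0.329 CPM after sham surgery and 15.9 ± 1.20 CPM after I/R.

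Among 15 nucleic acid sensing genes, 12 were tested and 0 called, with a median of 0.05. Ticam1, the adaptor of TLR3, stood at 8.07 ± 1.16 CPM after sham surgery and 10.3 ± 0.902 CPM after I/R, Sting1, the adaptor of the DNA sensor cGAS, at 4.45 ± 0.862 and 5.84 ± 0.273 CPM, and Myd88 at 9.07 ± 0.283 and 10.5 ± 0.562 CPM. All 3 had I/R values above all sham values, which the choice by p favors, with adjusted p from 0.425 to 0.6 in edgeR's test. They were the only genes of the 12 whose groups did not overlap, against 17.1% of all tested genes. Of 11 negative regulators 0 were called, and the median was 0.10. Socs3, a feedback inhibitor induced mainly by STAT3 cytokines, stood at 9.32 ± 0.649 CPM after sham surgery and 13.4 ± 2.47 CPM after I/R (0.52 ± 0.15, adjusted p = 0.2, edgeR). Ptpn1 and Samhd1 stood 0.28 and 0.18 higher on the log2 scale.

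A wider list of 79 other interferon-stimulated genes had 69 tested, 0 called and 26 above 0, with a median of -0.05. At an unadjusted p under 0.05, 6 stood higher and 1 lower, together 7 of 69, or 10.1% against 10.5% of all tested genes. The 3 genes of smallest p, given as values only, are of low level: Epsti1 at 0.418 ± 0.0293 CPM after sham surgery and 0.969 ± 0.115 CPM after I/R, Apol9a at 0.723 ± 0.251 and 1.61 ± 0.212 CPM, and Slfn9 at 0.805 ± 0.342 and 1.70 ± 0.109 CPM. Their groups did not overlap, which the choice by p favors, and their adjusted p in edgeR's test ran from 0.143 to 0.222. Of the 69, groups did not overlap for 8 genes with I/R above and 7 with I/R below. Over all tested genes these shares were 9.23% and 7.83%. Eif2ak2, chosen after its values were seen, encodes the RNA-activated kinase PKR and stood at 23.9 ± 2.14 CPM after sham surgery and 30.2 ± 2.18 CPM after I/R (0.34 ± 0.11). Ifitm1, also chosen after its values were seen, was the 1 lower gene, with 2.09 ± 0.226 and 1.06 ± 0.581 CPM. At 736 bases it is among the genes under 800 bases, whose median log2 fold change was -0.16. The part of gene length in its value was not tested.

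**Figure D5:**
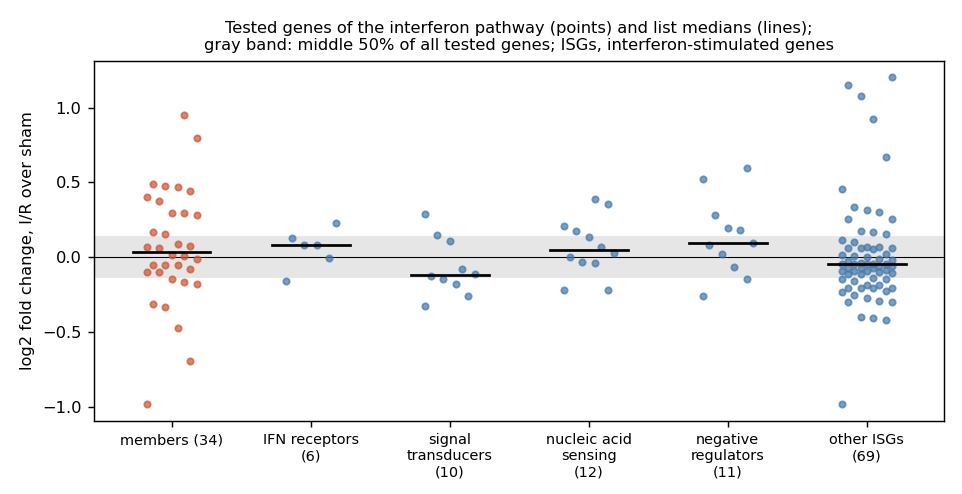
Log2 fold change of I/R over sham for the tested genes of 6 lists (points), with list medians (lines) and the middle 50% of all tested genes (gray band). List medians lie between -0.12 and 0.10, and points above 0.9 belong to the members and to the other interferon-stimulated genes.

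The size of difference these data bound varied with the gene. The 95% interval lay within 2-fold in both directions for 26 of the 34 genes and within 1.5-fold for 18. The 8 genes whose interval reached past 2-fold on 1 side were Ifi44, Mx1, Zbp1 and Usp18, on the higher side, and Oas2, Isg15, Cxcl10 and Ifi27l2a, on the lower side. For the other 26, differences beyond 2-fold lie outside the interval.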

How the data were processed

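Per the labels' protocols, the sequenced material was TRIzol-extracted total RNA from which stranded mRNA libraries were built with an Illumina kit. The tools fastp, HISAT2 and StringTie and the assembly GRCm39 appear in the submitters' processing notes. Which program counted reads, and with which strand setting and annotation, is not stated in the labels. The authors deposited expected counts per gene, which are estimated read counts made before deposit and carry no scaling for depth. Between 10.7% and 11.5% of values per library were not whole, and all were rounded before testing. The design had assumed whole counts, and its test was kept.

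The quasi-likelihood test of edgeR 4.0.16 (R 4.3.3) was run over all genes after filterByExpr and TMM scaling, with Benjamini-Hochberg adjustment. Tests were two-sided. CPM uses TMM-scaled library sizes, and TPM uses the deposited gene lengths. The SE is the size of the log2 fold change divided by the square root of F. The 95% intervals are per gene and unadjusted. Promoter sequences are RefSeq's on GRCm38.p6, another build than that of the counts, and were matched by symbol for 25 of the 34 members.

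Other settings tried were 2 normalizations (RLE, upper quartile), DESeq2 1.42.0, limma-voom (limma 3.58.1), other filters, the replicate number as a block, leaving out each library, and sham 2 alone against I/R. A length offset was added after seeing the data. The test was run on simulated counts with known changes, under 2 random seeds, and under both the share of false calls exceeded the level the adjustment aims at. A chi-square test gave 4.11 to 30.5 per degree of freedom between libraries of 1 group, so none was counted as a repeat read of another library. Separate preparations of 1 RNA sample could also give such values, so the test cannot decide whether each library is a separate mouse. The labels give 3 mice a group but do not tie each library to a mouse, so p-values measure the spread between these libraries, which may be technical in part. The limit that a count of 0 allows covers counting error only.

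All members are named. Per-library values were given for members with an unadjusted p under 0.05, for the member of highest level and of smallest p in each role group, and for others where 1 library stood apart. Pathway lists name the 3 genes of smallest p. The members and lists were chosen with earlier results of these data known.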

Additional observations from a re-analysis of the deposited data

How the results depend on the processing

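No alternative called any of the 34 genes. Genes at an unadjusted p under 0.05 numbered 9 in the reported fit (26.5% of members against 10.5% of all tested genes). They numbered 5 in DESeq2 (14.7% against 8.04%). With each library left out they numbered 4 to 7 (11.8% to 20.6% of members, against 7.54% to 13.6% of all tested genes). Genes whose groups did not overlap numbered 5 in the reported fit (14.7% of members against 17.1% of all tested genes). With a CPM of at least 1 in 3 libraries, which leaves out no library, they numbered 8 of 33, 5 with I/R above and 3 below. They numbered 9 to 12 with a library left out and 19 with sham 2 alone, where fewer libraries make separation easier. The share over all tested genes was not counted in these other settings, so these counts cannot be set against other genes. Calls over all genes numbered 188, and 312 in DESeq2, 494 without the filter on low counts, 63 with the replicate block, 32 with sham 2 alone and 87 to 181 with a library left out. The labels do not say whether replicate numbers pair mice. Same-numbered libraries correlated at -0.142, 0.195 and -0.160 over genes, and sham 1 and sham 3 did not correlate best with their own number. With 3 libraries a group that also differ by gene length, these correlations cannot decide whether mice were paired. The block left 6 of the 34 genes at an unadjusted p under 0.05 (17.6% of members against 10.1% of all tested genes).

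Of 509 alternative values of single genes, 482 kept their sign. The other 27 belong to 10 genes, none called. With a CPM of at least 1 in 3 libraries, Stat2 stood at -0.0084 and Gbp3 at -0.0022. With sham 2 alone, Zbp1 stood at -0.35, Stat2 at -0.16, Gbp3 at -0.063, Gbp7 at -0.0175 and Rtp4 at 0.11. With the length offset, Stat2 stood at -0.0146, Ifi35 at 0.02 and Rtp4 at 0.0073. With a library left out, the ranges were -0.33 to 0.35 for Bst2, -0.14 to 0.0006 for Dtx3l, -0.093 to 0.19 for Samd9l, -0.069 to 0.085 for Stat2, -0.016 to 0.041 for Gbp3, -0.13 to 0.14 for Ifi35, -0.15 to 0.077 for Rtp4 and -0.059 to 0.16 for Ifih1. The cause of these changes of sign was not tested. Ifi44, Mx1, Oas2 and Zbp1 had under 60 counts a library, and the part of depth in their spread was not tested.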

Other observations

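The 34 genes varied between mice of a group about as much as other genes did. The median biological coefficient of variation was 13.7% over the 34 genes and 12.5% over all tested genes, at median levels of 8.17 and 17.6 CPM. Zbp1 (31.3%), Oas2 (28.9%), Ifi27l2a (27.1%), Bst2 (26.3%), Cxcl10 (25.4%) and Isg15 (24.9%) had the highest values. Trim25 (8.92%), Oasl2 (9.58%) and Ifit2 (9.60%) had the lowest.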
